A study of Homo sapiens with 35 samples.

Results

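A set of 10 genes of blood vessel signalling, here called the VEGF family and angiogenesis factors, were described across the RNA sequencing libraries of DU145, an established human prostate cancer cell line that came from a brain metastasis. They were taken by gene name, which gave 10 of the 28503 genes of the deposited table: the ligands VEGFA, VEGFB, VEGFC and PGF, the receptor FLT1, the co-receptors NRP1 and NRP2, and the secreted factors ANGPTL4, THBS1 and EDN1. Short hairpin RNAs targeted ZMYND8 (shZMYND8), JARID1D (shJARID1D) or, as the control, luciferase (shLuciferase), with 2 libraries per group and 6 in all. ZMYND8 binds modified histones as a reader protein, and JARID1D, the product of the gene KDM5D, is a histone demethylase. All groups were DU145 grown in the same medium with serum. The labels give no second hairpin per target and no days of knockdown, and do not state that replicate libraries are separate cultures, so p-values reflect the variation among these 6 libraries alone, which could be technical. The other 29 samples of the series, of chromatin immunoprecipitation and its inputs, were not analysed here.

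Vascular endothelial growth factors are secreted by tumour and stromal cells and act on receptor tyrosine kinases of endothelial cells, with the neuropilins as co-receptors. VEGFA is the main driver of new vessel growth and a classical target of the hypoxia-inducible factors, PGF and VEGFB bind FLT1, and VEGFC acts mainly on lymphatic vessels. Thrombospondin 1, the product of THBS1, inhibits vessel growth. ANGPTL4 inhibits lipoprotein lipase and is induced by low oxygen and by peroxisome proliferator-activated receptors, and EDN1 encodes the precursor of endothelin 1, a vasoconstrictor. The libraries hold RNA of tumour cells grown alone, without vessels, so only the RNA of these genes in the tumour cells was measured, and not their protein.

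Sequences just upstream of the start of 3 genes are shown because ANGPTL4 and THBS1 rose in shZMYND8 and EDN1 had the largest log2 fold change among the members in shJARID1D. Of the 10 genes, 8 had a window in the RefSeq table of build GRCh38.p14, in 11 windows in all. VEGFA and NRP1 had none in it. EDN1 had 3, of which the one that holds a TATA box is shown. Each line gives the 250 bases before the annotated start on the plus strand, 5′ to 3′, at chr19:8363905-8364154 for ANGPTL4, chr15:39580829-39581078 for THBS1 and chr6:12290111-12290360 for EDN1. These positions are on GRCh38.p14 and not on hg19, the build that the submitters' processing notes name. Capitals mark ACGTG, the core of the hypoxia response element, or its reverse complement CACGT, and TATAAA, the TATA box.
ANGPTL4: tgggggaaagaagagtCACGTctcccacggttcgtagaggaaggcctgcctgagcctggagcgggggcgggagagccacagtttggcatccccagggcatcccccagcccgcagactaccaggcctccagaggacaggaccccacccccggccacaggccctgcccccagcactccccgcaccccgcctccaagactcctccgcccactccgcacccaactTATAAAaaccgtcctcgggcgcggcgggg
THBS1: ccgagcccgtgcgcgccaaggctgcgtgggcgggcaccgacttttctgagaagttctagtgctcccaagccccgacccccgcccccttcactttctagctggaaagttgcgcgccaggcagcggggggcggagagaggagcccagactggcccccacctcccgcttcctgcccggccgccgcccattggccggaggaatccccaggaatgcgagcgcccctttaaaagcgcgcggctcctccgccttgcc
EDN1: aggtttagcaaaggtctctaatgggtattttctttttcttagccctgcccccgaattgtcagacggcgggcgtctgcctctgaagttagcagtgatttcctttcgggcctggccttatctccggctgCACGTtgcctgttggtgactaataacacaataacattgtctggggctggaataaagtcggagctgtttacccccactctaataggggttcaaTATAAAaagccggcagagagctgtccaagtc

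Searched on both strands, ACGTG stood 234 bases before the start of ANGPTL4 and 123 bases before the EDN1 start shown and was not in the THBS1 window. The windows of VEGFB, VEGFC, PGF, FLT1 and NRP2 lacked it as well. For comparison, 18.5% of all 35116 windows of this length in the table held it. TATAAA stood 29 bases before the start of ANGPTL4, was not in the THBS1 window and was held by 10.7% of all windows. In the EDN1 window shown it stood 31 bases before the start. That window was picked for this match, so it cannot be compared with the share of all windows. The GC box GGGCGG, left in lower case, occurred 4 times upstream of THBS1, 2 times upstream of ANGPTL4 and not in the EDN1 window shown, and 42.6% of all windows held it. TGANTCA, a pattern used here for the AP-1 element, was in 0 of the 11 windows of the members and in 6.57% of all windows. Variants of this element were not searched. Of the EDN1 windows not shown, one held ACGTG 240 and 93 bases before its start and a GC box at 108 bases, and the other held none of these motifs. A match of letters is a description of the sequence and no evidence of binding.

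The deposited counts summed to 22925611 to 25001300 per library, which correspond to 20.73 to 27.44 M fragments. Levels are given in CPM, the counts scaled to a common total between libraries. A gene with 0 fragments in a library may still have a level of up to 0.109 to 0.145 CPM, by counting error alone. The levels of the targeted genes went with the labels. ZMYND8 stood at 35.5 and 33.2 CPM in shZMYND8, against 64.7 and 52.7 CPM in shLuciferase, and was 1.71-fold lower (log2 fold change -0.77 ± 0.13, adjusted p = 0.00491). That call was lost without shZMYND8 replicate 2 (-0.73, adjusted p = 0.0581). KDM5D stood at 19.6 and 17.9 CPM in shJARID1D, against 58.1 and 61.0 CPM in shLuciferase, and was 3.18-fold lower (-1.67 ± 0.12, adjusted p = 0.000831). Unless another test is named, each adjusted p comes from a quasi-likelihood F test in edgeR, adjusted by Benjamini-Hochberg over the 15867 tested genes. A ± gives the standard error of a log2 fold change and the SD of a mean, with n = 2 libraries per group, and a change was called at an adjusted p under 0.05. The share of all genes whose groups do not overlap was not computed. A lack of overlap below therefore only describes the libraries.

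DU145 is an epithelial line. The 8 epithelial markers were all detected, at a summed 2190 to 2270 CPM in shZMYND8, 1700 to 1920 CPM in shJARID1D and 2410 to 3400 CPM in shLuciferase. In shZMYND8, 4 of the 8 fell and 1 rose against shLuciferase (7.34% and 8.89% over all genes tested), and in shJARID1D 3 fell (2.79%). Of 12 endothelial markers, 9 were under 1 CPM in every library, among them PECAM1, CDH5, VWF and the VEGF receptor KDR. EGFL7 made up 84.0% of the endothelial sum, which was 26.8 to 27.8 CPM in shZMYND8, 22.1 to 25.5 CPM in shJARID1D and 18.0 to 31.3 CPM in shLuciferase. Of 8 stromal markers 5 were under 1 CPM in every library, and TAGLN made up 82.9% of a sum of 43.3 to 46.7 CPM in shZMYND8, 14.2 to 15.1 CPM in shJARID1D and 20.9 to 31.4 CPM in shLuciferase. The sum of 7 leukocyte markers, 92.6% of it CD68, was 47.6 to 58.8 CPM in shZMYND8, 47.0 to 47.3 CPM in shJARID1D and 37.6 to 43.7 CPM in shLuciferase. Against shLuciferase, 1 of 4 tested endothelial markers rose in shZMYND8 and 0 fell. It was ROBO4, at 3.0 and 3.67 CPM against 0.357 and 1.5 CPM (1.86 ± 0.52, adjusted p = 0.0374). Among 5 tested stromal and 4 tested leukocyte markers, 1 each rose in shZMYND8, COL1A1 and ITGAM, and 0 fell. In shJARID1D 0 of these markers rose and 1 fell, the stromal TAGLN. The shares over all genes tested are those given above. The part of these marker levels in the results below was not tested. In such bulk samples fewer cells that make an RNA and less of it per cell cannot be told apart.

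**Figure D1:**
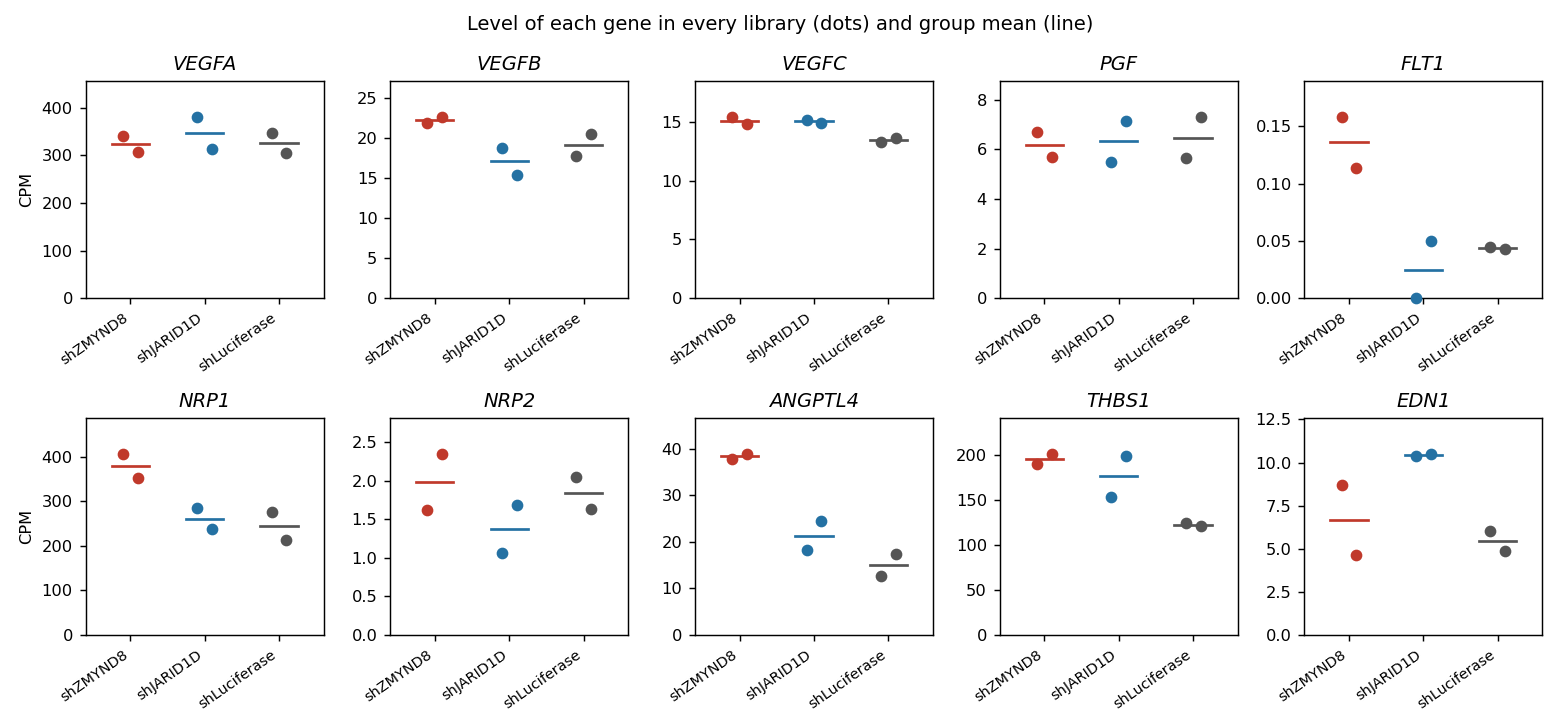
CPM of the 10 genes in each library (dots) with the group mean (line), for shZMYND8, shJARID1D and shLuciferase. Each panel has its own vertical axis from 0. ANGPTL4 lies at 37.9 and 38.9 CPM in shZMYND8, above all other libraries, while VEGFA lies between 305 and 380 CPM throughout.

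Whether these factors change when the histone reader is lowered was asked by setting shZMYND8 against shLuciferase. ANGPTL4, THBS1 and NRP1 rose, and no member fell. Of the 10 members 9 had enough counts to be tested, and 3 rose, 0 fell and 6 did not pass. Over all genes tested 8.89% rose and 7.34% fell. The members and lists were chosen with earlier results of these data known. A count set beside such a share, here or below, is therefore only a description. The median log2 fold change of the 9 members was 0.22, against -0.01 over all genes. Only ANGPTL4 passed without shZMYND8 replicate 1 or without shZMYND8 replicate 2 (1 member each), and ANGPTL4 and THBS1 passed without shLuciferase replicate 2.

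In shJARID1D against shLuciferase, which asked the same of the demethylase, 0 of the 9 tested members passed, and 3 had an unadjusted p under 0.05: ANGPTL4, THBS1 and EDN1. DESeq2 called 2 of them and limma voom 0. The median of the members was 0.10, against 0.00 over all genes. Over all genes tested 2.96% rose and 2.79% fell, and these counts depend on the libraries: 12 genes rose and 4 fell without shJARID1D replicate 1 and 15 rose and 7 fell without shJARID1D replicate 2, against 469 and 443 with all libraries. Scaling also moved the balance, to 540 genes higher and 335 lower with upper quartile factors and to 709 higher and 294 lower with library totals only. With library totals the median of all genes lay at 0.09.

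Set directly against shJARID1D, shZMYND8 had higher ANGPTL4 and NRP1: 2 of the 9 tested members were higher, 0 lower and 7 did not pass. Over all genes tested 8.67% were higher and 7.02% lower (1376 and 1114 genes), and with library totals only the balance turned to 1140 higher and 1392 lower. The median of the members was 0.15, against 0.00 over all genes. No member passed without shZMYND8 replicate 2 or without shJARID1D replicate 1, and 3 passed without either shLuciferase library. Both knockdown comparisons use the same 2 control libraries, so their values for a member are not independent.

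**Figure D2:**
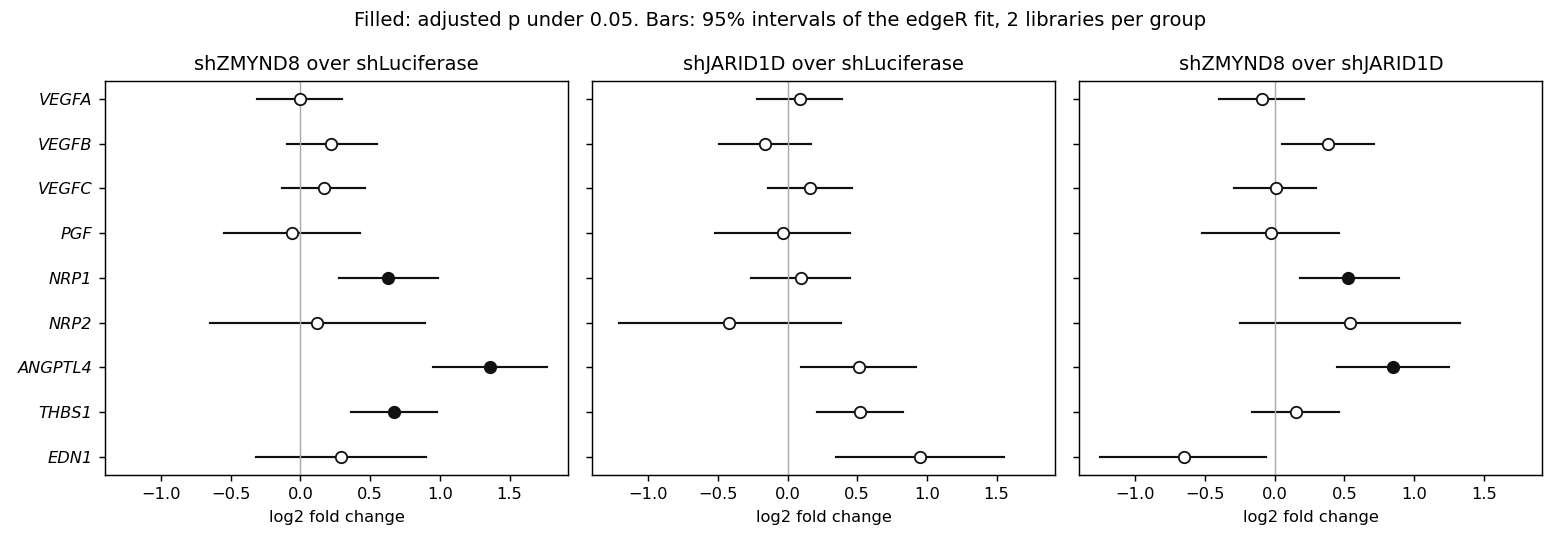
Log2 fold changes of the 9 tested members (dots) with 95% intervals (bars) in shZMYND8 over shLuciferase, shJARID1D over shLuciferase and shZMYND8 over shJARID1D. Filled dots passed an adjusted p under 0.05: NRP1, ANGPTL4 and THBS1 in the first panel, none in the second, NRP1 and ANGPTL4 in the third.

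Among the ligands, VEGFA passed in none of the 3 comparisons. It stood at 341 and 308 CPM in shZMYND8, 380 and 313 CPM in shJARID1D and 346 and 305 CPM in shLuciferase, on 6290 to 8907 fragments per library, and the groups overlapped in every comparison. The highest library was 1.25 times the lowest. The log2 fold change in shZMYND8 over shLuciferase was -0.0035 ± 0.14 (adjusted p = 0.992), with a 95% interval of -0.31 to 0.30. In shJARID1D over shLuciferase it was 0.089 ± 0.14 (adjusted p = 0.737), with an interval of -0.22 to 0.39. The direct difference between shZMYND8 and shJARID1D was -0.092 ± 0.14 (adjusted p = 0.687). A change within these bounds cannot be told from none with these libraries. The intervals are not adjusted for the number of genes tested, so a change beyond them could also have gone uncalled. The counts are per gene and cannot show a shift between the splice forms of VEGFA, which differ in how they bind heparan sulphate and NRP1.

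VEGFB, which binds FLT1, stood at 21.9 and 22.6 CPM in shZMYND8, 18.8 and 15.4 CPM in shJARID1D and 17.7 and 20.5 CPM in shLuciferase. Both shZMYND8 libraries lay above the other 4, and the shJARID1D and shLuciferase libraries overlapped. The log2 fold change in shZMYND8 over shLuciferase was 0.22 ± 0.15 (adjusted p = 0.339) and in shJARID1D over shLuciferase -0.16 ± 0.15 (adjusted p = 0.557). Directly, shZMYND8 differed from shJARID1D by 0.38 ± 0.15 (adjusted p = 0.106). That difference passed narrowly when only these 4 libraries were fitted (adjusted p = 0.0497), without shLuciferase replicate 1 (0.0491) and without shLuciferase replicate 2 (0.0497).

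VEGFC, the lymphatic growth factor, stood at 15.4 and 14.8 CPM in shZMYND8, 15.2 and 14.9 CPM in shJARID1D and 13.3 and 13.6 CPM in shLuciferase. All 4 knockdown libraries lay above both controls, by little: the log2 fold change was 0.17 ± 0.13 in shZMYND8 (adjusted p = 0.438) and 0.16 ± 0.13 in shJARID1D (adjusted p = 0.512). The interval in shZMYND8 ran from -0.13 to 0.46. Directly, shZMYND8 differed from shJARID1D by 0.0073 (adjusted p = 0.978). VEGFC had the narrowest range of the 9 tested members, with the highest library 1.15 times the lowest.

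PGF, placental growth factor, stood at 6.72 and 5.68 CPM in shZMYND8, 5.5 and 7.16 CPM in shJARID1D and 5.66 and 7.3 CPM in shLuciferase. The groups overlapped, and the libraries within a group differed by 1.18 to 1.30 times. Its log2 fold change was -0.063 ± 0.22 in shZMYND8 (adjusted p = 0.879) and -0.034 ± 0.22 in shJARID1D (adjusted p = 0.946), and the direct difference was -0.029 (adjusted p = 0.947). At 127 to 170 fragments per library the intervals were wide, from -0.55 to 0.43 in shZMYND8 and from -0.52 to 0.45 in shJARID1D.

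FLT1, the receptor tyrosine kinase that binds VEGFA, VEGFB and PGF, was barely detected in this epithelial line. It had 4 and 3 fragments in shZMYND8, 0 and 1 in shJARID1D and 1 and 1 in shLuciferase. It had too few counts to be tested, and no fold is given.

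The co-receptor NRP1, which binds VEGFA and class 3 semaphorins, rose in shZMYND8. It stood at 406 and 351 CPM in shZMYND8, 285 and 237 CPM in shJARID1D and 276 and 212 CPM in shLuciferase. Both shZMYND8 libraries lay above the other 4, while shJARID1D and shLuciferase overlapped. NRP1 was 1.55-fold higher in shZMYND8 than in shLuciferase (0.63 ± 0.16, adjusted p = 0.0252). Against shJARID1D it was 1.45-fold higher (0.53 ± 0.16, adjusted p = 0.048). In shJARID1D over shLuciferase the log2 fold change was 0.098 ± 0.16 (adjusted p = 0.752), with an interval of -0.26 to 0.45. The call against shLuciferase was lost without shZMYND8 replicate 1 (0.52, adjusted p = 0.191), shZMYND8 replicate 2 (0.73, 0.0691) or shLuciferase replicate 2 (0.45, 0.069) and without the filter on low counts (0.62, 0.064). The call against shJARID1D was lost when any of the 4 libraries compared was left out, at adjusted p from 0.0975 (without shJARID1D replicate 1) to 0.305 (without shJARID1D replicate 2), with log2 fold changes of 0.40 to 0.68. It was also lost with upper quartile factors (0.52, adjusted p = 0.0595), library totals only (0.48, 0.074), no filter on low counts (0.53, 0.101) and the unquantified genes kept (0.54, 0.0529).

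NRP2, the related co-receptor for VEGFC and semaphorins, was sparse. Its fragments numbered 41 and 62 in shZMYND8, 25 and 34 in shJARID1D and 46 and 38 in shLuciferase, or 1.62 and 2.35 CPM in shZMYND8, 1.07 and 1.69 CPM in shJARID1D and 2.05 and 1.63 CPM in shLuciferase. The shZMYND8 and shJARID1D libraries each overlapped those of shLuciferase. The log2 fold change was 0.12 ± 0.34 in shZMYND8 (adjusted p = 0.851) and -0.42 ± 0.36 in shJARID1D (adjusted p = 0.519), and the direct difference was 0.54 ± 0.35 (adjusted p = 0.331). The interval in shZMYND8 ran from -0.65 to 0.89, so a rise as large as that of NRP1 there (0.63) could not be told from none at this depth. In shJARID1D the interval ran from -1.21 to 0.38.

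ANGPTL4 rose most of the members in shZMYND8. It stood at 37.9 and 38.9 CPM in shZMYND8, 18.2 and 24.4 CPM in shJARID1D and 12.6 and 17.3 CPM in shLuciferase, or 38.4 ± 0.68, 21.3 ± 4.43 and 15 ± 3.31 CPM on average. The 3 groups did not overlap: shZMYND8 was highest, shJARID1D lay between and shLuciferase was lowest. ANGPTL4 was 2.57-fold higher in shZMYND8 than in shLuciferase (1.36 ± 0.18, adjusted p = 0.0016), and this call held in each of the 6 fits with a library left out (1.15 to 1.60, adjusted p 0.000704 to 0.0169) and under the 11 other settings tried at the threshold of 0.05.

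Directly, ANGPTL4 was 1.80-fold higher in shZMYND8 than in shJARID1D (0.85 ± 0.18, adjusted p = 0.0138). That call was lost without shZMYND8 replicate 1 (0.87, adjusted p = 0.0811), shZMYND8 replicate 2 (0.83, 0.0951) or shJARID1D replicate 1 (0.66, 0.113). In shJARID1D over shLuciferase the log2 fold change was 0.51 ± 0.19, with an interval of 0.10 to 0.92, and did not pass (adjusted p = 0.134). It passed without shLuciferase replicate 2 (0.75, adjusted p = 0.0359), the control library with the higher level of ANGPTL4. Without shJARID1D replicate 2 or shLuciferase replicate 1 it was smaller, and over the libraries left out its adjusted p ran from 0.0359 to 0.554.

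THBS1, the inhibitor of vessel growth, rose in shZMYND8 as well. It stood at 190 and 201 CPM in shZMYND8, 153 and 199 CPM in shJARID1D and 124 and 121 CPM in shLuciferase. All 4 knockdown libraries lay above both controls, and the 2 knockdowns overlapped, since shJARID1D replicate 2 was close to the shZMYND8 libraries. In shZMYND8 THBS1 was 1.60-fold higher than in shLuciferase (0.67 ± 0.14, adjusted p = 0.0106). Without shZMYND8 replicate 1 (0.71, adjusted p = 0.0693) or shZMYND8 replicate 2 (0.63, 0.0857) that call was lost at about the same fold change.

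In shJARID1D over shLuciferase the log2 fold change of THBS1 was 0.52 ± 0.14, with an interval of 0.21 to 0.83, and just missed the threshold (adjusted p = 0.0586). It passed under 5 of the 11 other settings, among them DESeq2 (0.51, adjusted p = 0.0109), library totals only (0.61, 0.0277) and upper quartile factors (0.57, 0.0419), and in 0 of the 6 fits with a library left out (adjusted p 0.0529 to 0.366). The 2 knockdowns differed by 0.15 ± 0.14 (adjusted p = 0.491), with an interval of -0.16 to 0.46. A call in one knockdown and none in the other thus does not show a difference of THBS1 between them.

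**Figure D3:**
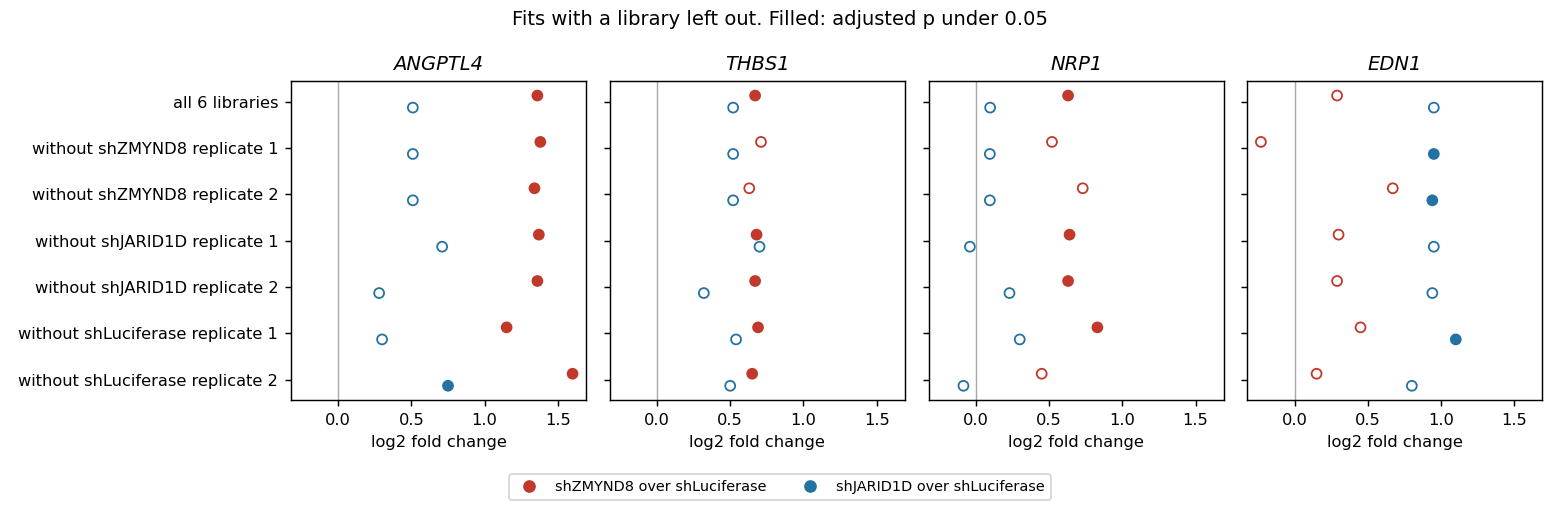
Log2 fold changes of ANGPTL4, THBS1, NRP1 and EDN1 over shLuciferase in the fit of all 6 libraries and with each library left out, red for shZMYND8 and blue for shJARID1D. Filled dots passed an adjusted p under 0.05. The red dots of ANGPTL4 run from 1.15 to 1.60 and are all filled, and the red dots of EDN1 run from -0.23 to 0.67 and are all open.

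EDN1, the precursor of endothelin 1, was highest in shJARID1D. It had 8.7 and 4.66 CPM in shZMYND8, 10.4 and 10.5 CPM in shJARID1D and 6.02 and 4.89 CPM in shLuciferase. Both shJARID1D libraries lay above the other 4, while the shZMYND8 libraries differed by 1.87 times from each other and overlapped the controls on both sides. The log2 fold change in shJARID1D over shLuciferase was 0.95 ± 0.27, with an interval of 0.35 to 1.55, and did not pass (adjusted p = 0.0693). It passed with DESeq2 (0.94, adjusted p = 0.0278), in the fit of these 4 libraries alone (0.95, 0.0422), and without shZMYND8 replicate 1 (0.95, 0.0454), shZMYND8 replicate 2 (0.94, 0.0457) or shLuciferase replicate 1 (1.1, 0.0466), within a range over the libraries left out of 0.0454 to 0.249.

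In shZMYND8 over shLuciferase the log2 fold change of EDN1 was 0.29 ± 0.27 (adjusted p = 0.514). It turned to -0.23 without shZMYND8 replicate 1 (adjusted p = 0.675). Directly, shZMYND8 differed from shJARID1D by -0.65 ± 0.27 (adjusted p = 0.121), and this passed without shZMYND8 replicate 1 (-1.18, adjusted p = 0.0429). EDN1 had 114 to 245 fragments per library.

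The other genes of the endothelin axis were 6, of which 4 had enough counts. EDN2, which encodes a second endothelin acting on the same receptors, rose in shZMYND8 and fell in shJARID1D, the fall being the less stable call. It stood at 7.75 and 8.06 CPM in shZMYND8, 1.32 and 1.79 CPM in shJARID1D and 3.08 and 3.35 CPM in shLuciferase, with no overlap among the 3 groups. EDN2 was 2.47-fold higher in shZMYND8 than in shLuciferase (1.30 ± 0.22, adjusted p = 0.00446), and 5.04-fold higher than in shJARID1D (2.33 ± 0.24, adjusted p = 0.000655). In shJARID1D it was 2.04-fold lower than in shLuciferase (-1.03 ± 0.25, adjusted p = 0.0429). The fall in shJARID1D kept its call in 1 of the 6 fits with a library left out, that without shLuciferase replicate 1. In the other 5 the adjusted p ran from 0.0728 (without shLuciferase replicate 2) to 0.264 (without shJARID1D replicate 1). It was lost as well under 4 of the 11 other settings: library totals only (adjusted p = 0.0523), no filter on low counts (0.0742), limma voom (0.0616) and the fit of these 4 libraries alone (0.108).

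Neither ECE1, the enzyme that releases active endothelin, nor the endothelin receptor gene EDNRA passed in a comparison. ECE1 stood at 183 and 160 CPM in shZMYND8, 141 and 163 CPM in shJARID1D and 134 and 149 CPM in shLuciferase. EDNRA had 7 and 19 fragments in shZMYND8, 13 and 15 in shJARID1D and 14 and 5 in shLuciferase. The receptor gene EDNRB had 0 to 3 fragments in any library, too few to be tested. The endothelin list thus gave 1 gene higher in shZMYND8 and 1 lower in shJARID1D, EDN2 in both. The shares over all genes tested were 8.89% and 2.79%.

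**Figure D4:**
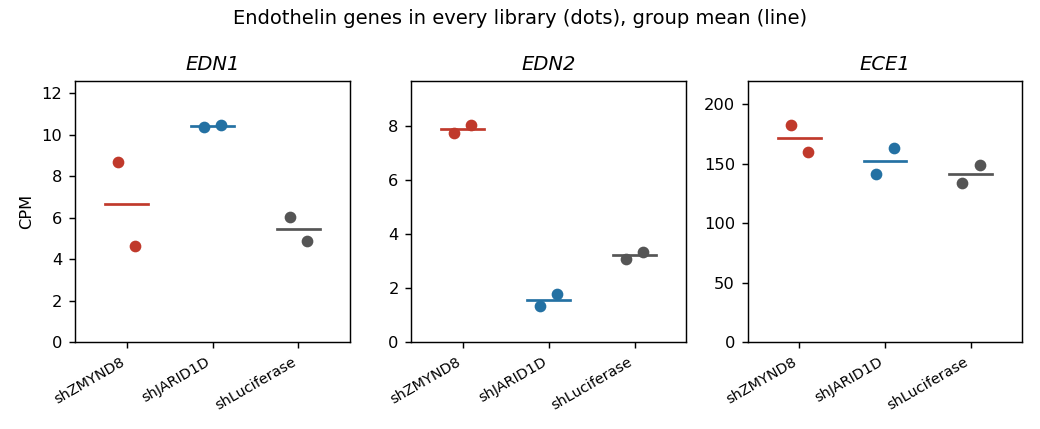
CPM of EDN1, EDN2 and ECE1 in each library (dots) with the group mean (line), each panel on its own axis from 0. EDN1 is highest in shJARID1D at 10.4 and 10.5 CPM, and EDN2 is highest in shZMYND8 at 7.75 and 8.06 CPM and lowest in shJARID1D.

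Neuropilins pair with plexins to receive class 3 semaphorins, a second set of ligands that guides axons and vessels. Of the 12 listed partners 11 were tested, with a median of 0.52 in shZMYND8 over shLuciferase, against -0.01 over all genes. In that comparison 5 rose and 0 fell (8.89% and 7.34% over all genes tested). Without shZMYND8 replicate 1 or shZMYND8 replicate 2 the count was 2 each. PLXNA2, a receptor for semaphorins, stood at 8.46 and 7.57 CPM in shZMYND8, against 2.01 and 2.75 CPM in shLuciferase (1.75 ± 0.23, adjusted p = 0.00142). PLXND1, the plexin of endothelial guidance, stood at 19.6 and 22.2 CPM in shZMYND8, against 9.27 and 10.4 CPM in shLuciferase (1.09 ± 0.15, adjusted p = 0.00153). These 2 kept their calls in all 6 fits with a library left out.

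The fifth gene that rose in shZMYND8 was SEMA3D, a ligand, on few fragments: 30 and 27 in shZMYND8, against 8 and 5 in shLuciferase. PLXNA1, another semaphorin receptor, rose by 0.67 ± 0.15 (adjusted p = 0.0132) and the ligand SEMA3C by 0.52 ± 0.12 (adjusted p = 0.0176) in shZMYND8. Both calls were lost without shZMYND8 replicate 1 (adjusted p of 0.0599 for PLXNA1 and 0.0814 for SEMA3C) or shZMYND8 replicate 2 (0.121 and 0.141). In shJARID1D 0 of the 11 passed, with a median of 0.24, while 2.96% of all genes tested rose and 2.79% fell. Directly, 4 of the 11 were higher in shZMYND8 than in shJARID1D and 2, the ligands SEMA3A and SEMA3E, were lower. Over all genes tested 8.67% were higher and 7.02% lower. SEMA3E had only 2 and 1 fragments in shZMYND8, under the floor of 3 fragments, against 18 and 10 in shJARID1D. SEMA3A had 33 and 21 fragments in shZMYND8 and 82 and 63 in shJARID1D. In this direct comparison PLXNA2 differed by 1.44 ± 0.23 (adjusted p = 0.0038) and PLXND1 by 0.85 ± 0.14 (adjusted p = 0.00543). Without a shZMYND8 or shJARID1D library the 4 became 1 or 2 and the 2 became 0. PLXND1 lost that call without shZMYND8 replicate 2 (0.76, adjusted p = 0.0669) or shJARID1D replicate 2 (0.84, adjusted p = 0.051).

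**Figure D5:**
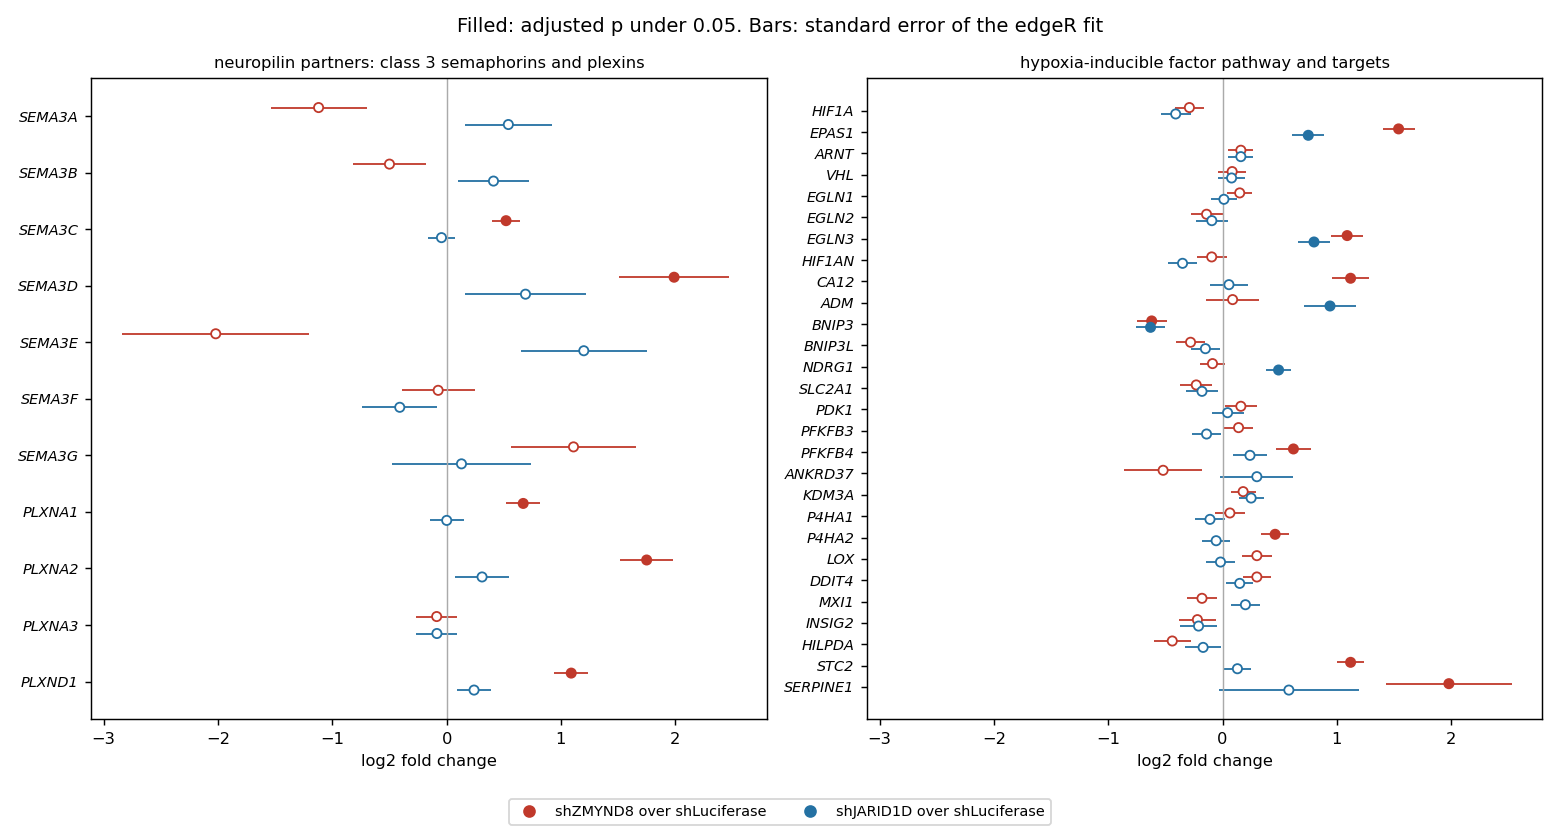
Log2 fold changes over shLuciferase (dots) with standard errors (bars) for the tested neuropilin partners (left) and the tested genes of the hypoxia-inducible factor list (right), red for shZMYND8 and blue for shJARID1D. Filled dots passed an adjusted p under 0.05. PLXNA2 at 1.75 and EPAS1 at 1.54 are filled in red.

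The remaining VEGF, PDGF and angiopoietin genes were 14, of which 7 were tested, and moved in no common direction. In shZMYND8 1 rose and 1 fell (8.89% and 7.34% over all genes tested), in shJARID1D 1 rose and 0 fell (2.96% and 2.79%). PDGFB, which recruits pericytes to vessels, fell to 4.82 and 7.30 CPM in shZMYND8, against 12.9 and 17.0 CPM in shLuciferase (-1.30 ± 0.23, adjusted p = 0.00598), a call lost without shZMYND8 replicate 1 (-1.04, adjusted p = 0.0674). PDGFA stood at 11.3 and 14.3 CPM in shZMYND8, against 7.8 and 8.84 CPM in shLuciferase (0.62 ± 0.17, adjusted p = 0.0346). PDGFC stood at 11 and 11 CPM in shJARID1D, against 6.51 and 6.61 CPM in shLuciferase (0.75 ± 0.16, adjusted p = 0.0303). The calls of PDGFA and PDGFC held in 1 of the 6 fits with a library left out for PDGFA (without shLuciferase replicate 2) and in 2 for PDGFC (without either shLuciferase library), and their adjusted p there reached 0.259 (PDGFA, without shZMYND8 replicate 2) and 0.177 (PDGFC, without shJARID1D replicate 1). Of 7 angiopoietin-like genes other than ANGPTL4 only 2 were tested, and 0 passed in either knockdown.

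Genes listed as inhibitors of angiogenesis, THBS1 apart, were 13, with 7 tested. In shZMYND8 3 rose and 0 fell (8.89% and 7.34% over all genes tested), with a median of 0.12, and in shJARID1D 0 passed. TIMP2, an inhibitor of matrix metalloproteinases, stood at 191 and 193 CPM in shZMYND8, against 119 and 104 CPM in shLuciferase (0.79 ± 0.12, adjusted p = 0.0027). COL18A1, the collagen from which endostatin is cleaved, stood at 332 and 356 CPM in shZMYND8, against 166 and 232 CPM in shLuciferase (0.79 ± 0.16, adjusted p = 0.00897), a call lost without shZMYND8 replicate 1 (0.83, adjusted p = 0.0559) or shZMYND8 replicate 2 (0.73, adjusted p = 0.0719). CXCL10, an interferon-induced chemokine, stood at 7.43 and 3.03 CPM in shZMYND8, against 0.357 and 0.0859 CPM in shLuciferase (adjusted p = 0.0014). No fold is given for it, since shLuciferase replicate 2 lay under the level that 3 fragments allow.

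Among 7 relatives and receptors of thrombospondin 1 4 were tested. In shZMYND8 2 rose and in shJARID1D 1 (8.89% and 2.96% over all genes tested), and 0 fell in either. THBS3, a thrombospondin of the extracellular matrix, stood at 18.8 and 18.6 CPM in shZMYND8, 27.1 and 24.5 CPM in shJARID1D and 11 and 12.8 CPM in shLuciferase. It was higher than in shLuciferase by 0.65 ± 0.14 in shZMYND8 (adjusted p = 0.0123) and by 1.12 ± 0.14 in shJARID1D (adjusted p = 0.00758). The call in shZMYND8 was lost without shZMYND8 replicate 1 (0.64, adjusted p = 0.0975) or shZMYND8 replicate 2 (0.66, 0.079), and that in shJARID1D without shJARID1D replicate 1 (1.05, 0.0662). SPON2, a secreted matrix protein, stood at 3.12 and 2.46 CPM in shZMYND8, against 0.892 and 0.558 CPM in shLuciferase (1.93 ± 0.38, adjusted p = 0.00912), and lost its call without shZMYND8 replicate 1 (1.74, adjusted p = 0.0944).

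Other growth factors that promote vessel growth were 20, with 16 tested. In shZMYND8 4 rose and 1 fell (8.89% and 7.34% over all genes tested), with a median of 0.36. In shJARID1D 2 rose and 2 fell (2.96% and 2.79% over all genes tested), with a median of 0.08. The gene that fell in shZMYND8 was TGFA, and those that fell in shJARID1D were TGFA and FGF2, all ligands of growth factor receptors. The fall in shZMYND8 was lost (0 genes lower) without shZMYND8 replicate 1, either shJARID1D library or shLuciferase replicate 2. CTGF, a matrix-bound growth factor, stood at 39.4 and 43.4 CPM in shZMYND8, against 16.8 and 23.3 CPM in shLuciferase (1.04 ± 0.17, adjusted p = 0.00345), a call kept with each library left out. TYMP, a thymidine phosphorylase that promotes angiogenesis, rose by 1.15 ± 0.21 (adjusted p = 0.00622) and the ligand HBEGF by 0.64 ± 0.14 (adjusted p = 0.0138). JAG1, a Notch ligand, rose in shZMYND8 by 0.68 ± 0.17 (adjusted p = 0.0225) and in shJARID1D by 0.97 ± 0.16 (adjusted p = 0.0161). The 4 rises in shZMYND8 became 1 without shZMYND8 replicate 1 and 2 without shZMYND8 replicate 2. TYMP (0.85, adjusted p = 0.0693), HBEGF (0.67, 0.0892) and JAG1 (0.64, 0.149) lost their calls without shZMYND8 replicate 1, and HBEGF (0.61, 0.104) and JAG1 (0.71, 0.101) also without shZMYND8 replicate 2. JAG1 in shJARID1D lost its call without shJARID1D replicate 1 (0.88, 0.131) or shJARID1D replicate 2 (1.05, 0.0683), and none of the 16 passed there without either of these libraries. Without shLuciferase replicate 1, 5 fell in shJARID1D.

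Since VEGFA, ANGPTL4 and EDN1 are known targets of the hypoxia-inducible factors, the genes of that pathway were set beside them: 29 genes, of which 28 were tested. In shZMYND8 7 rose, 1 fell and 20 did not pass, with a median of 0.11, while 8.89% of all genes tested rose and 7.34% fell. EPAS1, the second alpha subunit of these factors, stood at 146 and 145 CPM in shZMYND8, 91.0 and 77.3 CPM in shJARID1D and 55.3 and 44.5 CPM in shLuciferase, with no overlap among the groups. It was 2.92-fold higher in shZMYND8 (1.54 ± 0.14, adjusted p = 0.00045) and 1.69-fold higher in shJARID1D (0.75 ± 0.14, adjusted p = 0.0197) than in shLuciferase. HIF1A, another alpha subunit, stood at 894 and 890 CPM in shZMYND8, 834 and 812 CPM in shJARID1D and 1210 and 970 CPM in shLuciferase. It did not pass in shZMYND8 (-0.29 ± 0.13, adjusted p = 0.163) or in shJARID1D (-0.41 ± 0.13, adjusted p = 0.0994). The gene that fell was BNIP3, a mitochondrial protein of the hypoxia response, and without either shZMYND8 library 0 fell.

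EGLN3, a prolyl hydroxylase that acts on these factors, stood at 34.6 and 28.9 CPM in shZMYND8, 26.9 and 25.2 CPM in shJARID1D and 14.6 and 15.2 CPM in shLuciferase. It rose by 1.09 ± 0.14 in shZMYND8 (adjusted p = 0.00112) and by 0.80 ± 0.14 in shJARID1D (adjusted p = 0.016). STC2, a secreted stanniocalcin, rose by 1.12 ± 0.12 (adjusted p = 0.000729) and CA12, a carbonic anhydrase, by 1.12 ± 0.16 (adjusted p = 0.00222) in shZMYND8. The shZMYND8 calls of EPAS1, EGLN3, STC2 and CA12 held with each library left out, while the 7 rises became 4 without either shZMYND8 library. In shJARID1D 4 rose and 1 fell (2.96% and 2.79% over all genes tested), with a median of 0.05. The fall was lost when any one of the 4 knockdown libraries was left out, and the 4 rises became 2 without either shZMYND8 library and 0 without either shJARID1D library. Without shJARID1D replicate 1 (EPAS1 0.63, adjusted p = 0.17, and EGLN3 0.76, 0.132) or shJARID1D replicate 2 (0.87, 0.0709, and 0.85, 0.0787) both genes lost their calls in shJARID1D. Without shLuciferase replicate 2, 3 genes of the list fell in shZMYND8.

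ANGPTL4 is also a target of peroxisome proliferator-activated receptors. Of 10 other targets 7 were tested, with 0 higher and 1 lower in shZMYND8 (8.89% and 7.34% over all genes tested). ACADVL, an enzyme of fatty acid oxidation, fell in shZMYND8 by 0.60 on the log2 scale (adjusted p = 0.0164), a call lost without either shZMYND8 library (adjusted p of 0.133 without shZMYND8 replicate 1 and 0.088 without shZMYND8 replicate 2). The median of the list was -0.13 in shZMYND8.

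For the 3 members that rose in shZMYND8, the genes most alike in pattern across the 6 libraries were sought by Pearson's r of log2 CPM. The search covered the 10308 genes whose mean reached 5 CPM. Pearson's r compares the pattern and not the level or the size of a change. ANGPTL4 was most like SESN2 (r = 0.995), at 39.4 and 41.7 CPM in shZMYND8, 24.7 and 29.4 CPM in shJARID1D and 20.8 and 25 CPM in shLuciferase, and REXO1 (0.994). THBS1 was most like SKP2 (0.998) and CNNM2 (0.99). NRP1 was most like ABCC1 (0.999), at 150 and 133 CPM in shZMYND8, 112 and 97.4 CPM in shJARID1D and 108 and 88.2 CPM in shLuciferase, and SLC2A13 (0.997). The points are 6 libraries in 3 groups, and 347 genes for ANGPTL4, 176 for THBS1 and 311 for NRP1 had an r over 0.9, so these values describe the pattern and nothing more.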

How the data were processed

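RNA was sequenced in 6 libraries of DU145 cells, 2 each of shZMYND8, shJARID1D and shLuciferase, grouped by the labels. The deposited values are expected counts, which the authors' software estimated as fragments for each gene in a library. Per the submitters' processing notes, Cuffdiff, Bowtie 1.1.2, edgeR 3.12.0, TopHat2 2.0.12 and hg19 were used, in roles the notes do not give. Strand, annotation and any poly(A) selection are not given in the sources that were used, so genes that overlap or have near copies are uncertain. Columns named Rac7_KO were taken as shZMYND8, since an antibody label of the series gives RACK7 as another name of ZMYND8. In the deposited scaling 1 fragment counts as 0.8815 to 1.1602. Undoing it brought 84.0% to 84.9% of the values up to 1000 fragments to within 0.05 of whole numbers. The 60 genes marked as not quantified (HIDATA) in any library were left out, a step added to the planned fit, and the 10 marked as failed were kept. No member carried either mark. The 18 variance columns were not used.

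Counts were rounded and tested in R 4.3.3 with edgeR 4.0.16 (its quasi-likelihood test, TMM factors of 0.966 to 1.057, filterByExpr, no replicate term, Benjamini-Hochberg over 15867 of 28443 genes, threshold 0.05). All 6 libraries shared the spread estimate, with 3 residual and 6.8 prior degrees of freedom and a biological coefficient of variation of 12.3%. CPM are scaled by these factors, intervals are 95% intervals of the fit, and the floor is 3 fragments. Replicate libraries differed beyond sampling noise (chi-square per gene 11.5 to 34.5). The labels name no batch. Alternatives used DESeq2 1.42.0 and limma 3.58.1, and the fits were tested on simulated data.

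The members and lists were chosen with earlier results of these data known. Named were all 10 members, both targets, up to 4 genes per list by smallest adjusted p among those past the threshold in a knockdown, and the 2 genes most like each member that rose. Other list genes (SEMA3A, SEMA3D, SEMA3E, TGFA, FGF2, HIF1A, BNIP3, ECE1, EDNRA and EDNRB) were named after their values were seen. So were the markers ROBO4, COL1A1, ITGAM and TAGLN. Not every gene the rule gave is described in each comparison. A few list and marker genes are not reported here. Of the 118 genes in the 9 lists, 5 were matched by an older name. Promoter windows and motif shares come from a RefSeq table, and tables and figures were made with matplotlib 3.10.9, pandas 2.3.3 and numpy 2.4.6 in Python 3.11.15.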

Additional observations from a re-analysis of the deposited data

Results flagged for a closer look

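Among the members, 2 differed between the knockdowns by the direct test. NRP1 was higher in shZMYND8 than in shJARID1D, with a log2 fold change of 0.53 (edgeR adjusted p = 0.048), at 378 ± 39.2 CPM in shZMYND8 and 261 ± 34.0 CPM in shJARID1D (SD, n = 2 each). That call was lost when any one of the 4 libraries compared was left out and under 4 other settings, with adjusted p up to 0.305. ANGPTL4 was higher by 0.85 (edgeR adjusted p = 0.0138), at 38.4 ± 0.68 CPM in shZMYND8 and 21.3 ± 4.43 CPM in shJARID1D, a call lost without either shZMYND8 library or shJARID1D replicate 1. Both shZMYND8 libraries lay above both shJARID1D libraries for either gene. With 2 libraries per group no single library could be examined as standing apart from its group.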

How the results depend on the processing

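The calls rest on 2 libraries per group, and a fit that leaves out a library assumes that the lone one left varies like those of the other groups. Over the 9 tested members, 3 comparisons and the alternatives at the threshold of 0.05, 393 values kept their direction and side of the threshold, 18 gained and 17 lost a call and 28 changed sign. Depth limits FLT1 and NRP2. The cause of the changes below was not tested.

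In shZMYND8 over shLuciferase, 615 genes were higher, 387 lower and 1 member past at a threshold of 0.01, and with a library left out 419 to 1605 were higher, 223 to 1617 lower and 1 to 3 members past. In shJARID1D over shLuciferase the higher genes were 709 with library totals only, 98 without the low count filter, 250 in the fit of the groups compared, 36 at 0.01 and 12 to 965 with a library left out. The lower genes were 294 with library totals, 106 without the filter, 774 with DESeq2, 199 in the fit of the groups compared, 41 at 0.01 and 4 to 1180 with a library left out. Members past were 1 with upper quartile factors, library totals, a mean count of at least 50 or the fit of the groups compared, 2 with DESeq2 and 0 to 1 with a library left out. In shZMYND8 over shJARID1D the higher genes were 860 without the filter, 2224 in the fit of the groups compared, 469 at 0.01 and 352 to 2175 with a library left out, and the lower genes 700, 2028, 292 and 172 to 2016 under the same settings. Members past were 1 with upper quartile factors, library totals, no filter or the unquantified genes kept, 0 at 0.01 and 0 to 3 with a library left out.

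Same-numbered libraries deviated together at correlations of 0.10, 0.09 and 0.17, which does not establish that the numbers pair them. With the replicate block, 1778 genes were lower in shZMYND8 over shLuciferase, 1039 were higher and 1034 lower in shJARID1D over shLuciferase, and 1792 were lower in shZMYND8 over shJARID1D. Under the replicate block 3 members, ANGPTL4 (0.51, adjusted p = 0.0342), THBS1 (0.51, 0.02) and EDN1 (0.96, 0.0158), passed in shJARID1D over shLuciferase, and EDN1 differed between the knockdowns (-0.70, 0.0359, lower in shZMYND8).

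Log2 fold changes that changed sign in shZMYND8 over shLuciferase were those of VEGFA (0.029 with upper quartile factors, 0.034 with library totals, 0.016 with a mean count of at least 50, and -0.098 to 0.089 with a library left out) and, with a library left out, PGF (-0.24 to 0.13), NRP2 (-0.18 to 0.36), EDN1 (-0.23 to 0.67) and KDM5D (-0.11 to 0.0053). In shJARID1D over shLuciferase they were PGF (0.013 with upper quartile factors, 0.053 with library totals, -0.24 to 0.16 with a library left out), VEGFA (-0.056 to 0.22) and NRP1 (-0.084 to 0.30). In shZMYND8 over shJARID1D they were VEGFC (-0.0071 with upper quartile factors, -0.045 with library totals, -0.0023 without the filter, -0.019 to 0.031 with a library left out), VEGFA (-0.23 to 0.059), PGF (-0.20 to 0.17) and THBS1 (-0.02 to 0.35).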
